A study of Mus musculus with 8 samples.

Results

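Macrophages labelled as knockout for NF-κB-inducing kinase (NIK KO; NIK is the product of Map3k14) were compared with wild-type (WT) macrophages after IL-4, gene by gene, by RNA sequencing. The members are all 14193 gene rows of the authors' results table for this contrast, out of 14485 genes in either of the series' tables, and the description centres on the 9513 with a base mean (the average normalized count over the 4 libraries) of 100 or more, which hold 99.3% of the summed base means. The cells were bone-marrow-derived macrophages of female mice aged 12 weeks, 2 mice labelled WT (mice 700 and 710) and 2 labelled NIK KO (mice 707 and 709). All groups were grown for 7 days in 30% medium conditioned by L929 cells, a mouse fibroblast line that secretes the macrophage growth factor M-CSF, replated in 5%, and then given 20 ng/mL IL-4 for 6 h. Cells of the same 4 mice kept in PBS for 6 h form the other table, of 13676 genes, and its values are set beside those with IL-4. The sources used here give neither the knockout allele nor the strain.

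NIK is the kinase of the noncanonical NF-κB pathway: in resting cells TRAF3 and the cIAP ligases keep it low, and when receptors such as CD40 or the lymphotoxin β receptor are engaged it accumulates, activates IKKα and causes p100 to be cut to p52, the partner of RelB. IL-4 acts through another route, in which its receptor activates JAK kinases and the transcription factor STAT6, and in mouse macrophages this induces the alternatively activated (M2) genes such as Arg1, Retnla, Chil3 and Mrc1. By its title the series is about respiration in mitochondria and about how NIK bears on the differentiation and inflammatory status of innate cells, and the genes of those processes are described as lists.

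Values per library were not analysed here, so each gene has 1 log2 fold change with its standard error (SE), and the group means given for WT and NIK KO were computed back from its base mean and fold change. The depth of each library is unknown, and the number of mice, 2 per genotype, limits every value. The genotype direction is that of the table's name, and the gene that should check it goes against the label. Map3k14 stood at a mean normalized count of 418 in WT and 832 in the libraries labelled NIK KO, and in the authors' deposited table it rose by 0.99 ± 0.22 on the log2 scale (DESeq2 adjusted p = 0.00782). NIK KO and WT therefore stand throughout for the libraries so labelled, and every direction rests on those labels. Which exons the allele removes is not given, and a transcript without the kinase's activity would still be counted.

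The genotype contrast was narrow. Among the 9513 genes of base mean 100 or more the median log2 fold change was 0.01, 90% of the genes lay between -0.33 and 0.35, and the median SE was 0.22. A log2 fold change of at least 1 in size was found for 27 of them, 7 of them higher in the libraries labelled NIK KO and 20 lower, and 68.9% changed by less than 0.2. The share with a fold change above 0 was 52.8%, and this is the background for the list counts below. At an adjusted p under 0.05 in the authors' deposited table (DESeq2 Wald test, Benjamini-Hochberg), 9 of these genes were called, 4 higher and 5 lower, or 0.0946%. Over all 13642 genes with an adjusted p the count was 17, 7 higher and 10 lower, or 0.125%. Without adjustment, a p under 0.05 was reached by 182 of the 9513 genes as higher (1.91%) and by 91 as lower (0.957%). Of the 17 called genes, 8 shared more than 50% of the 31-base words of their longest transcript with another gene, against 3.85% of the genes of base mean 100 or more. With those genes left out of the test, 6 calls stood over all genes.

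**Figure D1:**
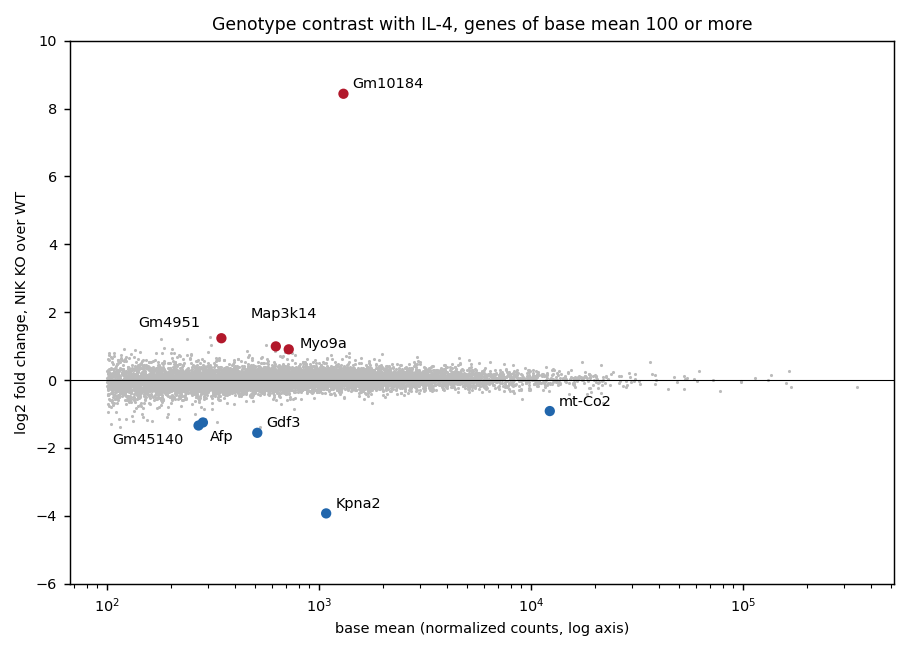
Each point is 1 gene whose base mean with IL-4 was 100 or more: the x axis is the base mean in normalized counts (log axis) and the y axis the log2 fold change, NIK KO over WT, from the authors' table. Called genes are coloured, red for higher and blue for lower; Gm10184 at 8.44 and Kpna2 at -3.93 lie far outside the band that holds 90% of genes, and the other 7 called genes lie between -1.56 and 1.23.

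The 2 calls of lowest adjusted p were a gene and its copy, and they moved in opposite directions. Kpna2 encodes importin α1, an adaptor that carries proteins with a nuclear localization signal into the nucleus, and Gm10184 on chromosome 17 is a copy of it, with 95.8% of its words in Kpna2. Kpna2 had a mean normalized count of 2027 in WT and 133 in the libraries labelled NIK KO, and it fell by 3.93 ± 0.25 in the authors' deposited table (by DESeq2, adjusted p = 5.40e-53). For Gm10184 the means were 7.50 and 2599, and the authors' deposited table has it higher by 8.44 ± 0.42 (DESeq2 adjusted p = 5.96e-86). The same opposite directions stand in the PBS table, with Kpna2 at 2140 and 89.7 and Gm10184 listed near 0 in WT and at 2525 in NIK KO. Summed over the pair, WT had 2034 and NIK KO 2732 with IL-4, a log2 ratio of 0.43. In the GENCODE M21 transcripts of GRCm38 the coding part of Kpna2 has 1587 bases, of which 2 differ in Gm10184, and both differences fall in the 60 bases printed here (coding positions 682 to 741, counted from the A of the start codon), shown because these letters are what separates the pair in the coding part; capitals mark the differing bases.
Kpna2: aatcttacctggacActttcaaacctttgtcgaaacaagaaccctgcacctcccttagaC
Gm10184: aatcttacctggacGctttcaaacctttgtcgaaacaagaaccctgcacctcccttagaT
By sequence alone, reads without a differing letter cannot be placed on 1 of the pair. Of the words of Kpna2, 92.7% occur in Gm10184, and differences outside the coding part are not printed here. The other 16 importins of the list, Gm10184 included, had log2 fold changes from -0.30 upward, and without Gm10184 none of them was called. Kpna6 was at 0.53 ± 0.21 and Ipo9 at 0.42 ± 0.21 in the authors' deposited table, neither called.

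A further 6 called genes have over 50% of their words in common with another gene. mt-Co2, a mitochondrially encoded subunit of cytochrome c oxidase, fell by 0.91 ± 0.18 in the authors' deposited table (16006 to 8491 with a DESeq2 adjusted p of 9.48e-04). Its nuclear copy Gm28661 was at -0.13, and the sum of that pair went from 56207 to 45291, a log2 ratio of -0.31. Gm45140, which shares 94.8% of its words, mostly with the GTPase gene Rab43, fell by 1.34 ± 0.27 in the authors' deposited table (387 to 153 with a DESeq2 adjusted p of 0.00185), while Rab43 stood at 1226 and 1657 and the sum at 1613 and 1810. Rpl14-ps1, a copy of the ribosomal protein gene Rpl14, fell by 2.19 ± 0.52 (155 to 34.1, adjusted p = 0.0286 by DESeq2, authors' deposited table; 0.128 once a trend of fold change on transcript length, described below, was taken out), while Rpl14 stood at 5868 and 5531. Gm10146, Gm28048 and Gm8325, copies of Lsm7, B3gnt2 and Ube2v1, were each listed near 0 in 1 genotype, the first of them in NIK KO and the others in WT. With the parent gene added, the log2 ratios of these 3 sums were -0.15, 0.04 and 0.25. In each of these 6 pairs the sum moved less than the called member, as it must where the partner itself moved less. Whether counts were exchanged within the pairs was not tested.

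The other 9 called genes share little sequence with others. Gdf3, a secreted ligand of the TGF-β family, had 763 mean normalized counts in WT and 259 in the libraries labelled NIK KO, and fell by 1.56 ± 0.31 in the authors' deposited table (by DESeq2, adjusted p = 0.00120). It was the call of lowest adjusted p among these 9, and the PBS table gives nearly the same levels, 749 and 279. Gm4951, an interferon-inducible GTPase of the immunity-related family, rose by 1.23 ± 0.26 in the authors' deposited table (207 to 486 with a DESeq2 adjusted p of 0.00366). Myo9a, an unconventional myosin with a RhoGAP domain, rose by 0.90 ± 0.22 in the authors' deposited table (501 to 938 with a DESeq2 adjusted p of 0.0286), and its adjusted p was 0.276 once a trend of fold change on the length of transcripts was taken out. Lamb3, a chain of epithelial laminin, rose by 4.40 ± 1.08 (1.42 to 30.0, authors' deposited table; DESeq2 adjusted p = 0.0401, and 0.0587 after the length trend was subtracted). Its level in both genotypes is under the base mean of 100.

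The remaining called genes, Pappa2, Afp, Col3a1 and Col5a1, are genes of placenta, fetal liver and connective tissue, all lower, and are described with those lists. Just inside the threshold stood Lamb3 and Col5a1, each at an adjusted p of 0.0401. Just outside stood Slc43a3, a nucleobase transporter, at -1.16 ± 0.30 (0.0681), Hbb-y, an embryonic globin, at -1.68 ± 0.43 (0.0730), Tpbpa, a trophoblast protein, at -1.14 ± 0.30 (0.0982), and Igf2, the fetal growth factor, at -1.77 ± 0.48 (0.123), where brackets give the adjusted p by DESeq2 and all values are from the authors' deposited table.

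**Figure D2:**
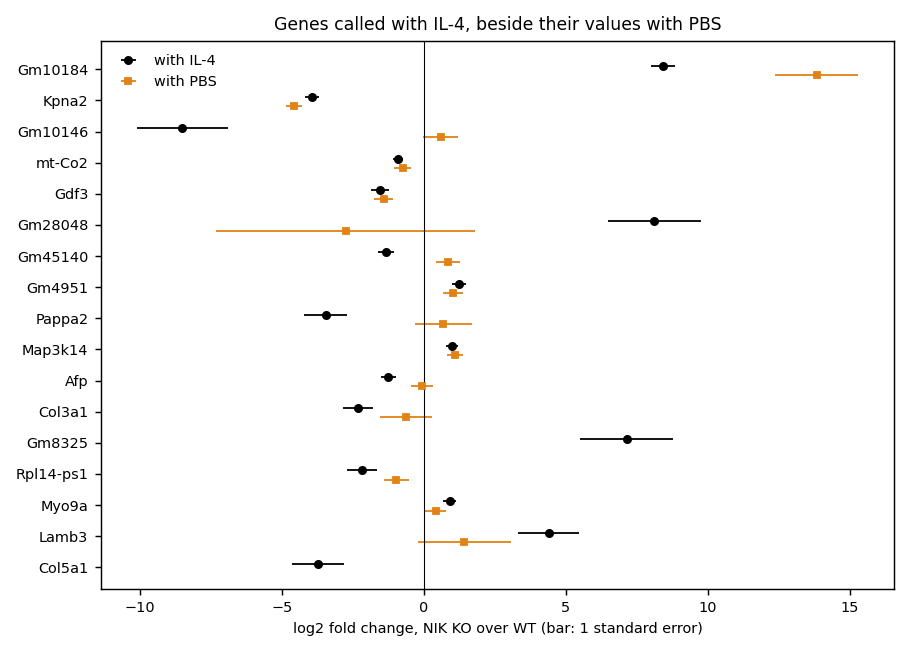
The 17 genes called with IL-4, in order of adjusted p: circles are the log2 fold change with IL-4, NIK KO over WT, squares the value with PBS where the gene is in that table, and bars 1 SE from the authors' tables. Gdf3 at -1.56 and -1.43, Map3k14 at 0.99 and 1.09 and Gm4951 at 1.23 and 1.02 stand alike in both tables, which share their mice, while Afp is at -1.25 with IL-4 and -0.07 with PBS.

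Of the genes of base mean 100 or more that were not called, the 15 of highest Wald statistic were Fcrls, Ciita, Aak1, Clcn5, Cmklr1, mt-Nd4l, Pafah1b1, Cd5l, Adnp, Spen, Iigp1, Pcnx, Tnrc18, Ep400 and Yeats2, and the 15 of lowest were Slc43a3, Tpbpa, Arf2, P2ry12, Nnt, Prl3b1, Sparc, Mrps35, Poc1b, Lilrb4a, Gm10123, mt-Co3, Tpbpb, Cdkn1c and Rpl15-ps3. Fcrls, an Fc receptor-like scavenger receptor, was at 0.64 ± 0.17 (3567 to 5551) in the authors' deposited table, and Cd5l, a secreted apoptosis inhibitor of macrophages, at 0.76 ± 0.21 (1476 to 2504). Cmklr1, the chemerin receptor, was at 0.84 ± 0.23, the endosomal chloride exchanger gene Clcn5 at 0.69 ± 0.19 and the endocytic kinase gene Aak1 at 0.81 ± 0.22 in the authors' deposited table. The DESeq2 adjusted p values of these 5 genes lay between 0.128 and 0.141. Pafah1b1, which encodes the dynein regulator LIS1, was at 0.68 ± 0.19 (2223 to 3570) and Pcnx at 1.04 ± 0.30 (366 to 754) in the authors' deposited table. On the lower side, Arf2, a small GTPase of vesicle budding, was at -0.67 ± 0.18 (2184 to 1374) in the authors' deposited table, P2ry12, a receptor for ADP, at -1.39 ± 0.39 (167 to 63.7), and Cdkn1c, an imprinted inhibitor of the cell cycle, at -0.69 ± 0.25 (491 to 304). Nnt, the mitochondrial NAD(P) transhydrogenase, is listed under 2 identifiers, 1 at -1.23 ± 0.35 and the other at 0.15 ± 0.32 in the authors' deposited table; their sum went from 689 to 448. Gm10123 and Rpl15-ps3 are copies of Ppia and Rpl15, each with 100% of its words in another gene.

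Genes near Map3k14 were looked at apart. On chromosome 11 of GRCm38, 168 genes of base mean 100 or more lie within 10 Mb of it, with a median of 0.04, and 4.17% of them had an unadjusted p under 0.05, 4 higher and 3 lower, beside 1.91% and 0.957% of all such genes. Kpna2, 3.77 Mb away, was the 1 called. Arhgap27, a RhoGAP gene 0.11 Mb away, was at 0.61 ± 0.22 and Arf2, 0.75 Mb away, at -0.67 ± 0.18 in the authors' deposited table.

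The noncanonical NF-κB genes showed no common direction: 8 of 16 members of base mean 100 or more were higher, the median was -0.01, and the call was Map3k14 itself. In the authors' deposited table the subunit gene Nfkb2 was at -0.13 ± 0.25 (2434 to 2221), and Relb at -0.11 ± 0.27 (1036 to 961). Of the receptors, Cd40 was at -0.31 ± 0.25 and Ltbr, the lymphotoxin β receptor, at 0.20 ± 0.19; of the brakes, Traf3 was at 0.19 ± 0.19 and Birc3, cIAP2, at -0.20 ± 0.20 in the authors' deposited table. None of these 6 genes had an unadjusted p under 0.05. The canonical NF-κB list leaned lower, with 3 of 24 higher, against 52.8% of all such genes, and a median of -0.16, and 0 members had an unadjusted p under 0.05. Its inflammatory targets had wide errors: Tnf was at -0.56 ± 0.90 (984 to 667), Cxcl2 at -0.86 ± 0.96 (987 to 543) and Cxcl1 at -1.06 ± 1.14 (178 to 85.2) in the authors' deposited table. Nfkbia, the inhibitor IκBα that NF-κB itself induces, was at -0.33 ± 0.26 in the same deposited table.

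The IL-4 route was present in both genotypes, and the genotype means differed little along it. Of the IL-4 receptor and STAT6 signalling genes 13 of 15 were higher in the libraries labelled NIK KO, but by a median of 0.10, with 0 at an unadjusted p under 0.05. Il4ra, the receptor chain, was at 0.29 ± 0.17 (1571 to 1920), Jak1 at 0.24 ± 0.16 and Stat6 at 0.19 ± 0.16 in the authors' deposited table. Arg1, arginase 1, had a mean normalized count of 8190 in WT and 7136 in NIK KO with IL-4, beside 30.5 and 17.3 with PBS in the separately normalized table; its genotype difference with IL-4 was -0.20 ± 0.15 in the authors' deposited table. Mrc1, the mannose receptor, had 24715 and 26999 with IL-4 and 1442 and 1544 with PBS. Retnla, the secreted protein RELMα, had 1385 and 1274 with IL-4 and is listed at 2.34 and 2.67 with PBS. Its genotype difference with IL-4 was -0.12 ± 0.80 in the authors' deposited table, an error too wide to tell whether the genotypes differ in it. Pdcd1lg2, the checkpoint ligand PD-L2, had 398 and 495 with IL-4 and 4.75 and 3.68 with PBS. In each of these 4 genes the genotypes lay closer together than the treatments.

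Among the M2 genes of base mean 100 or more, most secreted products were lower and most surface receptors higher, where 52.8% of all such genes were higher. Over all 15 measured secreted products the median was -0.06. Some had wide errors, such as Ccl22 at -0.43 ± 0.77 and Ccl7 at 0.08 ± 0.67 in the authors' deposited table. Of 11 secreted products 3 were higher (median -0.12), and 2 had an unadjusted p under 0.05, both lower: Chil3, the chitinase-like protein Ym1, at -0.43 ± 0.18 (2293 to 1699) and Fn1, fibronectin, at -0.99 ± 0.40 (345 to 173) in the authors' deposited table. Fn1 is also abundant in fibroblasts and fetal tissue, whose genes were lower in the same libraries, and their part in its value was not tested. Of 16 surface receptors 11 were higher (median 0.10), with Ccr2, the receptor for monocyte chemoattractants, at 0.66 ± 0.24 (842 to 1333) in the authors' deposited table. The M2 enzymes had a median of -0.03 (4 of 10 higher), which became 0.02 after the length trend was subtracted, and the M2 transcription factors 0.01 (9 of 16). None of the M2 lists held a called gene.

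Genes that mark placenta, fetal liver, embryonic red cells and fibroblasts had lower means in the libraries labelled NIK KO with IL-4. The list of trophoblast and placental genes was put together after the values were seen, so its direction is a description. The table lists 41 of them, 0 higher and 41 lower, with a median of -1.35, beside -0.15 for all genes under a base mean of 100, of which 41.0% were higher. These counts are over all measured members, unlike those of most lists above: 4 of the 41 had a base mean of 100 or more, and the median base mean was 24.5. Their summed mean was 2524 in WT and 1039 in NIK KO, and 18 had an unadjusted p under 0.05. Among all genes, 2.07% of those under a base mean of 100 and 0.957% of those at 100 or more were lower at that threshold. Whether members of low count were listed because of their WT level alone was not tested. The placental protease Pappa2, which cleaves IGF-binding proteins, fell by 3.46 ± 0.75 in the authors' deposited table (82.3 to 7.46 with a DESeq2 adjusted p of 0.00504). Tpbpa, a marker of spongiotrophoblast, had 399 and 180, the placental lactogen Prl3b1 229 and 98.9, the pregnancy-specific glycoprotein Psg21 138 and 53.7, and the paternally expressed gene Peg10 224 and 134. These genes are known from placenta and not as macrophage genes. The separately normalized table for PBS lists 32 of them, 16 higher and 16 lower, and their sums were 499 in WT and 542 in NIK KO.

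The other tissue lists moved with them, also counted over all measured members. A base mean of 100 or more was reached by 1 yolk sac and fetal liver gene and by 1 stromal marker. It was reached by 0 embryonic globins, 0 keratins and 0 erythroid markers. Of 10 yolk sac and fetal liver genes, also listed after the values were seen, 0 were higher and the sum went from 637 to 271. Afp, α-fetoprotein, made up most of it and fell by 1.25 ± 0.28 in the authors' deposited table (399 to 168 with a DESeq2 adjusted p of 0.00923); with PBS it stood at 154 and 146. The embryonic globins and the keratins of simple epithelia were also listed after the values were seen. The 3 embryonic globins summed to 192 and 60.9, with Hbb-y at 148 and 46.1, and the 4 keratins to 163 and 74.9. Of 18 measured fibroblast and stromal markers, out of 20 listed, 2 were higher, the median was -1.03 and the sum went from 936 to 421 (PBS 315 and 254). In the authors' deposited table the fibrillar collagen Col3a1 fell by 2.34 ± 0.53 (129 to 25.6, DESeq2 adjusted p = 0.0107), and Col5a1, a minor collagen of the same fibrils, by 3.72 ± 0.92 (46.0 to 3.49, DESeq2 adjusted p = 0.0401). Col1a1 and Col1a2, the chains of type I collagen, were at -1.51 ± 0.52 and -1.52 ± 0.49 in the same deposited table, and Sparc, a collagen-binding matrix protein, at -1.08 ± 0.33. Of 7 measured erythroid markers, out of 14, 3 were higher and 4 lower. The 4 lower ones are the adult globins (Hba-a1 at -1.19 ± 0.50, Hbb-bt at -2.15 ± 0.75 in the authors' deposited table) and the sum went from 347 to 167 (PBS 96.1 and 103). The 3 higher ones were near the floor of the table, with wide errors: Ermap, a red cell membrane protein, was at 1.59 ± 1.72 (3.15 to 9.51) in the authors' deposited table, and Alas2 and Slc4a1, which define red cell precursors, were at or under 5.10 in both genotypes. In bulk RNA, fewer cells of a type and less RNA per cell cannot be told apart. The source of these transcripts was not tested, and neither was whether 1 WT library or both carry them.

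**Figure D3:**
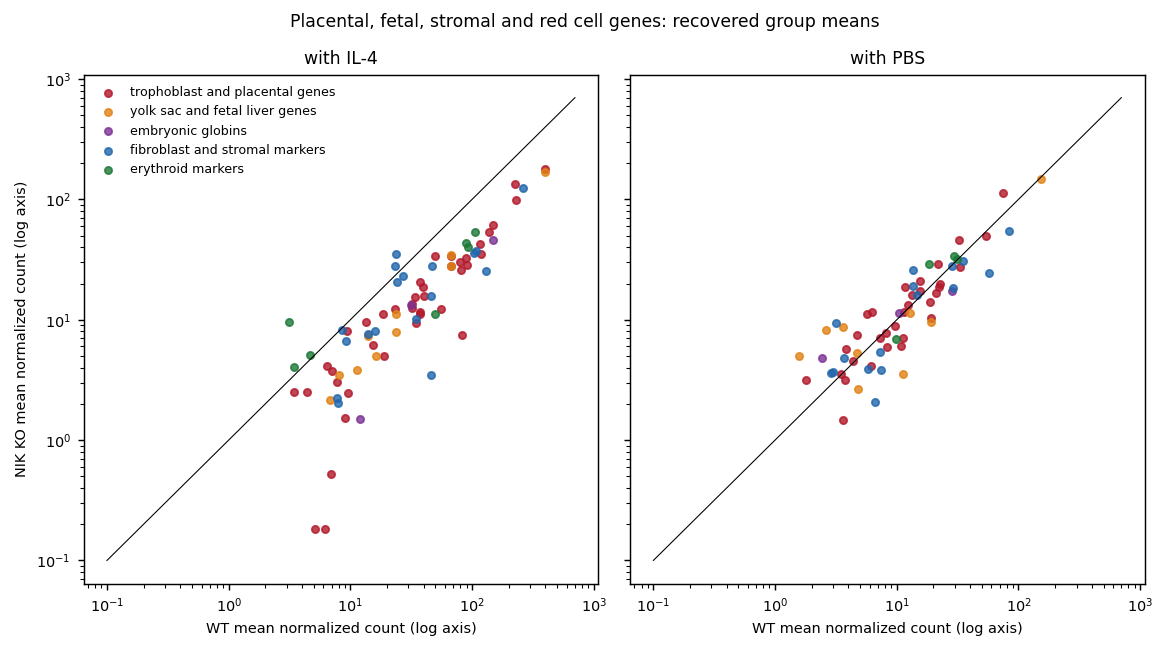
Each point is 1 gene of the placental, fetal, globin, stromal or erythroid lists, with its recovered mean normalized count in WT (x) and in NIK KO (y), both log axes, with IL-4 (left) and PBS (right); the line marks equal levels. With IL-4 all 41 trophoblast and placental genes lie below the line, while with PBS 16 of 32 lie above it.

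Macrophage identity itself was shared. The 10 genes of highest base mean were Lyz2, Fth1, Ctsb, Ftl1, Psap, mt-Co1, Eef1a1, Ctsd, Gpnmb and Spp1, with log2 fold changes from -0.33 to 0.26 in the authors' deposited table, and 0 of them were called. The macrophage markers, 12 of base mean 100 or more, had a median of 0.05 with 8 higher, and summed to 510373 in WT and 485745 in NIK KO, far above every other marker list. Adgre1, which encodes the F4/80 antigen, was at 0.54 ± 0.18 (29592 to 43143), Csf1r, the M-CSF receptor, at 0.27 ± 0.15 and the lysozyme gene Lyz2 at -0.22 ± 0.15 (370074 to 318214) in the authors' deposited table. The neutrophil markers summed to 2161 and 2782, nearly all of it Csf3r, which macrophages also express, and S100a8 had 133 and 76.2. The T and NK cell markers, 2 of 10 measured, summed to 20.2 and 34.9, and the mast cell markers, 1 of 8, to 30.4 and 30.8.

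Genes with long transcripts stood higher in the libraries labelled NIK KO and genes with short ones lower. Across 9503 genes with a length the Spearman correlation of log2 fold change with transcript length was 0.40 and with GC content 0.05; genes of a sample share its libraries, so these are descriptions. In 5 equal groups of genes, from the shortest transcripts to the longest, the medians were -0.11, -0.01, 0.02, 0.06 and 0.14, and the share of genes above 0 went from 24.7% to 72.8%. Of the 182 genes at an unadjusted p under 0.05 on the higher side, 101 were in the group of longest transcripts. With PBS the medians of the same 5 groups lay between -0.03 and 0.01. Long nuclear regulators, a list made after the values were seen, had 60 of 77 members higher and a median of 0.15. In it, Spen, a corepressor scaffold, was at 0.73 ± 0.21 (854 to 1418), Ep400, a chromatin remodeller, at 0.64 ± 0.18 and Adnp at 1.21 ± 0.34 (143 to 331) in the authors' deposited table. After the length trend was subtracted the median of that list was 0.03.

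**Figure D4:**
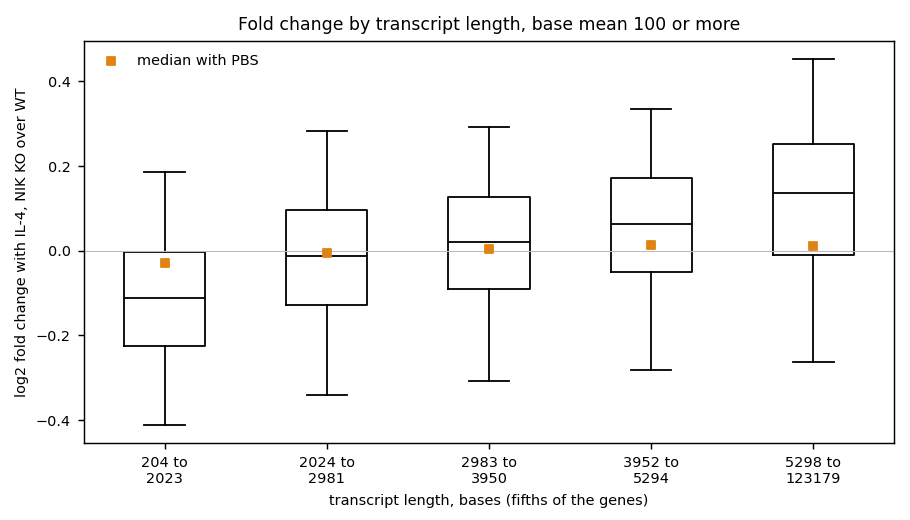
Log2 fold change with IL-4, NIK KO over WT, of genes of base mean 100 or more, in 5 equal groups by the length of a gene's longest transcript (x, bases): boxes span the middle 50% with the median, whiskers the 5th to 95th percentile, and orange squares the median with PBS. The IL-4 medians climb from -0.11 to 0.14, and the PBS medians stay between -0.03 and 0.01.

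Of the nuclear-encoded respiratory chain, complexes I, III and IV and ATP synthase stood lower on the side labelled NIK KO, and their medians came closer to 0 when the trend on length was taken out. Of complex I subunits 3 of 36 were higher (median -0.23), of complex III 0 of 9 (-0.16), of complex IV 0 of 11 (-0.25) and of ATP synthase 1 of 15 (-0.21), against 52.8% of all genes. After subtraction of the length trend these medians were -0.06, -0.03, -0.05 and -0.08. Complex II did not stand lower: 2 of its 4 genes were higher, and its median of -0.00 was 0.07 after subtraction. None of these genes was called; the complex I gene Ndufb10 was at -0.39 ± 0.19 (1210 to 924), the complex IV gene Cox6c at -0.42 ± 0.18 (1902 to 1426) and the ATP synthase gene Atp5e at -0.49 ± 0.22 (1528 to 1088) in the authors' deposited table. Cox17, the copper chaperone that loads cytochrome c oxidase, was at -0.59 ± 0.24 (752 to 500) in the same deposited table, among 34 assembly factors of which 7 were higher. Mitochondrial ribosome genes had 7 of 77 higher and a median of -0.15 (-0.08 after subtraction), and Mrps35 among them was at -0.87 ± 0.28 (368 to 202) in the authors' deposited table.

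Most of the 13 mitochondrially encoded genes were lower, by unlike amounts. Of these, 12 were lower with a median of -0.15, and the median was 0.02 after subtraction of the length trend. mt-Co2 was the 1 call, mt-Co3 was at -0.67 ± 0.23 (26904 to 16914) and mt-Nd4l at 0.86 ± 0.24 (441 to 801) in the authors' deposited table, and each of the 3 shares over 98% of its words with nuclear copies. The same subtraction ended the mt-Co2 call (adjusted p = 0.0839 from the DESeq2 statistic) and made mt-Nd4l, which lies in the opposite direction, a call (adjusted p = 9.17e-04). mt-Co1, the most abundant of them, had 131522 and 131353, a difference of -0.00 ± 0.15 in the authors' deposited table. Among fuel pathways the medians were near 0: the TCA cycle at -0.04 (6 of 20 higher), glycolysis at 0.01 (10 of 18) and fatty acid oxidation at -0.09 (4 of 19). Cytosolic ribosomal protein genes, whose transcripts are short, had 2 of 84 higher and a median of -0.17, which was -0.02 after subtraction.

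The mitosis list was also lower, with and without the trend on length. Of 32 members 2 were higher, the median was -0.18, and after subtraction it was -0.24. In the authors' deposited table Ube2c, which marks cyclins for degradation, was at -0.42 ± 0.21 (798 to 596), Ccnb2, a mitotic cyclin, at -0.40 ± 0.20 (1172 to 891) and the kinase gene Cdk1 at -0.38 ± 0.23 (817 to 629). DNA replication genes had a median of -0.02 (13 of 31 higher), with Cdt1, a licensing factor, at 0.52 ± 0.25 in the same deposited table. No member of either list was called.

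Interferon-induced genes stood higher in the libraries labelled NIK KO, by small amounts and nearly throughout. Of the interferon-inducible GTPases 17 of 19 of base mean 100 or more were higher (median 0.30, 0.27 after subtraction of the length trend), and of the antiviral interferon-stimulated genes 37 of 38 (median 0.21, 0.19 after subtraction), against 52.8% of all genes. Gm4951 was the 1 call in the GTPases and 0 antiviral genes were called. Of the GTPases, which attack the vacuoles of intracellular microbes, Iigp1 was at 1.22 ± 0.35 (108 to 251), Gbp6 at 0.69 ± 0.31 (351 to 568), Gvin1 at 0.39 ± 0.17 (4483 to 5884), Tgtp2 at 0.41 ± 0.25 (519 to 689) and Gbp3 at 0.26 ± 0.22 (872 to 1046) in the authors' deposited table. Of the antiviral genes, Rsad2, the enzyme viperin, was at 0.61 ± 0.25 (1018 to 1553), Slfn5 at 0.36 ± 0.16 (5304 to 6807) and Parp14 at 0.43 ± 0.17 (6994 to 9449) in the same deposited table. In the PBS table, from the same mice, the medians of the 2 lists were 0.35 and 0.27, with 17 of 19 and 37 of 38 higher.

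The promoters of these genes often hold the interferon-stimulated response element (ISRE), a DNA element known from genes that interferon induces. Its core was searched as GAAA, any 2 bases and GAAA again, on both strands, in the 250 bases before the RefSeq start (GRCm38.p6). It was found in 9 of 12 promoters of the GTPases and 14 of 30 of the antiviral genes that have an entry, against 2.95% of 7551 promoters of genes of base mean 100 or more and 3.04% of all 27025. A match is a description of these letters and not a shown site. The promoters of 2 members of each list are printed 5′ to 3′ on the gene's strand, each with a match and a start that GENCODE shares. They are examples and not the members of largest Wald statistic. Several GTPases, among them Gm4951, Iigp1, Gvin1 and Gbp6, had larger statistics than the 2 shown and are not printed. The choice therefore did not follow the statistic alone. Capitals mark the match in the printed promoters. They are at chr11:49064213-49064462 (minus strand), chr3:142559794-142560043 (plus strand), chr12:26456453-26456702 (minus strand) and chr11:82951852-82952101 (plus strand).
Tgtp2: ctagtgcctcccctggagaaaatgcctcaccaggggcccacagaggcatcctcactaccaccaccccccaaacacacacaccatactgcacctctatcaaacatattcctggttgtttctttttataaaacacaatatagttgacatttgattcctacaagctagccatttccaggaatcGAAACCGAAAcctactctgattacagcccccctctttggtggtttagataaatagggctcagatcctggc
Gbp3: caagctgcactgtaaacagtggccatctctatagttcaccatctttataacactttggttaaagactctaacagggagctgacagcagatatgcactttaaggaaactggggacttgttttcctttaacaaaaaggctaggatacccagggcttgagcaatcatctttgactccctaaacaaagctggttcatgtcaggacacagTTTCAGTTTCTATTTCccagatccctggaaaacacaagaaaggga
Rsad2: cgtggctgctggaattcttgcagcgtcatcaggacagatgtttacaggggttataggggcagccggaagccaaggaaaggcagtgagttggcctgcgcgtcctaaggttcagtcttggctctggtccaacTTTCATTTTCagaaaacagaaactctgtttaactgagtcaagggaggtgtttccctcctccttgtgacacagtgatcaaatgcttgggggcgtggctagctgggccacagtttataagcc
Slfn5: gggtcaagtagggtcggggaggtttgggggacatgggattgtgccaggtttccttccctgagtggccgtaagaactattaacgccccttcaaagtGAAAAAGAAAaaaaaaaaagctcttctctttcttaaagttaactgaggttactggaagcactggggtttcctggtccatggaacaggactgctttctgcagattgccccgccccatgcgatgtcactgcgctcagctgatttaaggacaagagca
In Gbp3 a pair of overlapping matches forms the capital run, and in Gbp3 and Rsad2 the matches are on the opposite strand.

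Genes of MHC class II presentation were higher as a list, led by their master regulator. Ciita, the class II transactivator, was at 0.72 ± 0.19 (1016 to 1668) in the authors' deposited table, with a DESeq2 adjusted p of 0.128. Its targets H2-Ab1, H2-Aa and H2-Eb1, the chains that display peptide, were at 0.59 ± 0.24 (4068 to 6122), 0.53 ± 0.24 (2456 to 3555) and 0.48 ± 0.23 (2427 to 3381), and Cd74, the invariant chain, at 0.53 ± 0.20 (14177 to 20501) in the authors' deposited table. Of 11 members of base mean 100 or more 10 were higher, the median was 0.27 (0.38 after subtraction of the length trend), 5 had an unadjusted p under 0.05 and 0 were called. With PBS the same genes had a median of 0.47 with 10 of 11 higher. In the authors' deposited table the costimulatory gene Cd80 was at 0.14 ± 0.36 and its relative Cd86 at 0.06 ± 0.28. The class II Y box, the inverted CCAAT element bound by NF-Y, was searched as CTGATTGG on both strands; 2 of 7 class II list promoters hold it, against 5.80% of promoters of genes of base mean 100 or more and 4.07% of all. Both are printed as above, at chr17:34287824-34288073 (minus strand) and chr17:34305617-34305866 (plus strand).
H2-Aa: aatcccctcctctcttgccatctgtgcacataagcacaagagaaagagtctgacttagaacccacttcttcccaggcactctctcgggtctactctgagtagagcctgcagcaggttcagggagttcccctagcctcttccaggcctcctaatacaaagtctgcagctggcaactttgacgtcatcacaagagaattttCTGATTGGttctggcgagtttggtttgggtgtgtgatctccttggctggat
H2-Eb1: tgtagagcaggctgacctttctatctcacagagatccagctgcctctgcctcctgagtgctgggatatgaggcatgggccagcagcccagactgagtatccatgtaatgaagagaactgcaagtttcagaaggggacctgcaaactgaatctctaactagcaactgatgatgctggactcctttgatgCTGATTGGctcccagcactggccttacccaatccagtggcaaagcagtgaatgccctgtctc
MHC class I presentation was higher by less, 18 of 23 with a median of 0.12, with Erap1, the peptidase that trims peptides for class I, at 0.45 ± 0.18 (2056 to 2807) in the authors' deposited table.

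Lipid efflux and sterol genes also leaned higher. LXR targets had 14 of 16 higher and a median of 0.24 (0.19 after subtraction), with the cholesterol exporters Abca1 at 0.54 ± 0.19 (1131 to 1649) and Abcg1 at 0.46 ± 0.18 (4381 to 6021) in the authors' deposited table. Sterol synthesis had 18 of 22 higher and a median of 0.12, and the unfolded protein response 18 of 22 and 0.13. Among sensors, the endosomal receptor gene Tlr7 was at 0.46 ± 0.20, Tlr8 at 0.44 ± 0.21 and Tlr9 at 0.60 ± 0.26 in the authors' deposited table, in a Toll-like receptor list with 16 of 21 higher and a median of 0.09. Of 160 solute carriers 11 were higher and 2 lower at an unadjusted p under 0.05, against 1.91% and 0.957% of all genes of base mean 100 or more. Their median of 0.08 was 0.04 after subtraction of the length trend. The vitamin C transporter Slc23a2 was at 0.55 ± 0.18 (2370 to 3474) in the same deposited table. No gene of these lists was called.

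**Figure D5:**
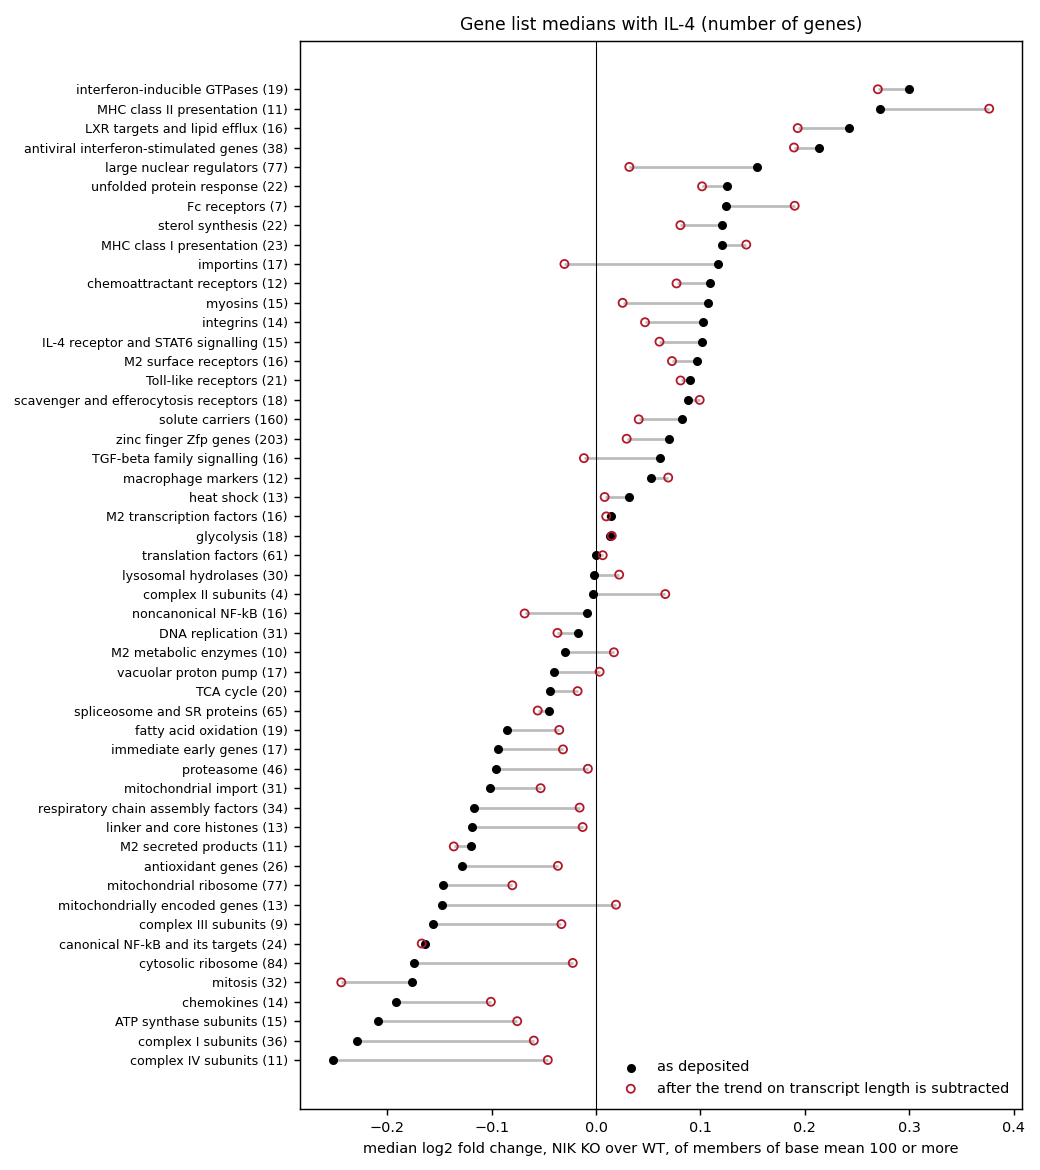
Median log2 fold change with IL-4, NIK KO over WT, of each gene list's members of base mean 100 or more (their number in brackets): filled points as deposited, open circles once the trend on length was taken out. The interferon and class II lists stay at 0.19 or higher in both, while complexes I, III and IV, ATP synthase, both ribosome lists and the nuclear regulators come closer to 0 and complex II goes from -0.00 to 0.07.

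Few genotype effects passed a test of the difference between IL-4 and PBS. In a z test of the difference of the 2 log2 fold changes, 2 of 13384 genes passed after Benjamini-Hochberg adjustment, or 0.0149%, and 116 had an unadjusted p under 0.05. Those 116 are a smaller share than the 0.05 that a calibrated test gives where no effect differs. The test was therefore conservative, and few calls do not show that the effects were alike. Both are copies of other genes, Gm10146 (adjusted p = 0.00149) and Pgam1-ps2 (0.00254), with Gm10146 listed near 0 in 1 of the 4 groups and Pgam1-ps2 in 2 of them, WT with IL-4 and NIK KO with PBS. The tables share their mice, and the test takes their errors as independent; with an assumed error correlation of 0.5, 20 genes passed, Pappa2, Tpbpa and Spen among them (adjusted p = 0.00586, 0.0262 and 0.00289).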

How the data were processed

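The submitters' processing notes list Salmon 1.4.0, DESeq2 1.32.0 and the build GRCm39; the sources used here give no annotation or filter. Each table, per the file headers, holds the authors' base mean per gene (a signal: the mean of normalized counts over 4 libraries), a log2 fold change with its SE on the log2 scale, the Wald statistic (a score) and the p-value, raw and adjusted. The deposited statistic equals fold change over SE, so fold changes are unshrunken; 551 genes of base mean 3.49 or lower have no adjusted p and keep none. Group means were recovered from base mean and fold change, with equal group sizes. The direction of the IL-4 table's name was applied to both tables. Replicates are separate mice, 2 per genotype. Treatments were compared by a two-sided z test of the difference with Benjamini-Hochberg adjustment over 13384 genes. Lists are given by counts and medians, with no list test.

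Word sharing (31 bases), lengths and positions came from GENCODE M21 (GRCm38), a different build from the authors', and promoters from RefSeq; the length trend was a lowess fit (span 0.3). The rule for named genes took called genes, the 15 highest and 15 lowest statistics among other genes of base mean 100 or more, up to 4 members per list (not all printed), a few fixed M2 and NF-κB genes, the 10 of highest base mean, and genes next to the threshold; others were chosen after their values were seen. Members and lists were chosen with earlier results of these data known. Python 3.11.15, numpy 2.4.6, pandas 2.3.3, scipy 1.17.1, statsmodels 0.14.6, biopython 1.88 and matplotlib 3.10.9 were used. The tests were also run on simulated fold changes, drawn with the deposited SE and with normal, independent errors. Such a run checks the code and cannot show whether those errors hold for these data.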

Additional observations from a re-analysis of the deposited data

Results flagged for a closer look

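Gm10146, a copy of Lsm7 with 100% of its words in that gene, had genotype effects that differed between the treatments: the effect with IL-4 minus that with PBS was -9.10 on the log2 scale (z test of the difference, Benjamini-Hochberg adjusted p = 0.00149). It had mean normalized counts of 68.4 in WT and 0.188 in NIK KO with IL-4, and 51.7 and 77.7 with PBS, so it is listed near 0 in 1 of the 4 groups and the size of the difference is no measure of fold. Lsm7 had 478 and 492 with IL-4.

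Pgam1-ps2, a copy of Pgam1, had genotype effects that differed between the treatments in the same test: the effect with IL-4 minus that with PBS was 34.37 on the log2 scale (Benjamini-Hochberg adjusted p = 0.00254). Its mean normalized counts were 0.180 in WT and 144 in NIK KO with IL-4, and 530 and 1.91e-05 with PBS, so it is listed near 0 in 2 of the 4 groups, and here too the size of the difference is no measure of fold.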

How the results depend on the processing

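Without genes of shared sequence, 6 of the 17 calls over all genes and 4 of the 9 at base mean 100 or more stood; Myo9a, Lamb3 and Col5a1 were lost there by the changed adjustment (adjusted p = 0.0567, 0.0700 and 0.0700). A t distribution with 2 degrees of freedom gave 0 and 0 calls, where DESeq2 by the normal distribution gave 17 and 9 (at an unadjusted p under 0.05, 182 genes of base mean 100 or more were higher and 91 lower). Under that t distribution even the largest statistic, 20.1 for Gm10184, did not pass. That setting therefore cannot tell firm calls from weak ones. At base mean 1000 or more 3 calls stood. Subtraction of the length trend, chosen after seeing the data, gave 14 calls over all genes, 13 of them shared with the 17, and 8 at base mean 100 or more; mt-Co2, Rpl14-ps1, Myo9a and Lamb3 were lost and mt-Nd4l was gained (adjusted p = 9.17e-04). An adjusted p under 0.1 gave 20. Centring left 17 and 9. The difference between treatments gave 20 calls with an error correlation of 0.5 and 0 among genes of base mean 100 or more in both tables. The median of 7 lists changed sign after the length trend was subtracted and that of 1 list after centring. No paired analysis was possible because the tables give 1 value per gene and the mice of the genotypes share no numbers; for the same reason no library could be left out.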
